A study of Mus musculus with 12 samples.

Results

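The genes described here were the 10 genes of this cluster that were picked by name, with their values in all 3 groups already known, from the 55536 genes listed in the tables: Serpina1a, Serpina1b, Serpina1e, Serpina3c, Serpina3f, Serpina3g, Serpina3h, Serpina3i, Serpina3m and Serpina3n. Their levels and fold changes are therefore given as a description, with no p-value. In GENCODE vM21 (GRCm38) they span 686 kb of chromosome 12, between positions 103728156 and 104414329. The 3 Serpina1 genes and Serpina3c lie on the minus strand and the other 6 on the plus strand. Serpina3h is annotated as a transcribed unprocessed pseudogene and the other 9 as protein coding. The record of Serpina1b overlaps that of Serpina1d, and the record of Serpina3m overlaps that of Serpina3k.

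Serpins are protease inhibitors that present a flexible bait, the reactive centre loop, to a protease and trap the enzyme that cuts it. In mice the genes for alpha-1-antitrypsin (Serpina1) and alpha-1-antichymotrypsin (Serpina3) have each been copied several times side by side on chromosome 12, and the copies differ most in the loop that decides which protease is bound. The Serpina1 proteins are secreted chiefly by the liver. Alpha-1-antitrypsin is known as an inhibitor of neutrophil elastase, which need not hold for every mouse copy. In mice Serpina3n is known as a secreted inhibitor of granzyme B and Serpina3g as an intracellular inhibitor of lysosomal cysteine cathepsins. Several Serpina3 genes are known to be induced in the acute phase response, by cytokines or by glucocorticoids. The number of Serpina1 copies is known to differ between inbred mouse strains.

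Polyadenylated RNA was sequenced from the stromal vascular fraction (SVF) of inguinal fat, which is the mixture of progenitor, vascular and immune cells left once adipocytes are removed. Libraries came from 4 male Pdgfrb-KO mice of 12 months, which carried Sma-CreERT2, an R26 reporter and Pdgfrb fl/fl alleles, from 4 male controls of 12 months and from 4 male controls of 2 months. Mutants were compared with 12-month controls, and 12-month controls with 2-month controls. The labels call the controls wild type, while the control model of the study carried Sma-CreERT2 and the reporter. The mutants had received tamoxifen to start recombination, and whether the sequenced controls had is not stated in the sources used here. The mice were of mixed C57BL6/J-129SV background and were kept at room temperature. Because Sma is also made by smooth muscle cells of blood vessels, the Cre is not specific to fat progenitors, and the cells in which Pdgfrb was deleted were not analysed here. Each library came from its own mouse.

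Values are the authors' read counts divided by a size factor for each library and rounded, called normalised read counts below. The libraries summed to between 19616978 and 21872836 normalised reads. The read counts behind them were estimated at 13784300 to 19962200 in Pdgfrb-KO mice, 20951700 to 29016500 in 12-month controls and 21367700 to 24835700 in 2-month controls. Fold changes are on the scale log2(value + 1) with their standard error (SE), and genes were tested with limma at an adjusted p under 0.05 (Benjamini-Hochberg) where at least 4 of the 8 libraries of a comparison reached a value of 10. Pdgfrb itself had values of 1882, 2145, 1707 and 1749 in Pdgfrb-KO mice, against 3000, 4380, 3258 and 2399 in 12-month controls. It was lower in every mutant than in every 12-month control (log2 fold change -0.77, SE 0.17, limma adjusted p = 0.0160).

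The 12-month controls differed from the 2-month controls mainly in which Serpina1 copy was read and in much lower levels of Serpina3h, Serpina3i and Serpina3n. Serpina1a and Serpina1b were far lower in 12-month controls and Serpina1e was far higher. The 12-month Pdgfrb-KO mice kept the Serpina1 pattern of the 12-month controls, with Serpina1e and Serpina3n at higher levels. The call of Serpina1e was kept in only 7 of 16 alternative settings of the fit. Serpina3c was lower in the mutants by a narrow gap (highest 179 against lowest 185) and did not pass the threshold. Serpina3g and Serpina3f overlapped between the groups in both comparisons. The plot of the members by library shows every value.

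**Figure D1:**
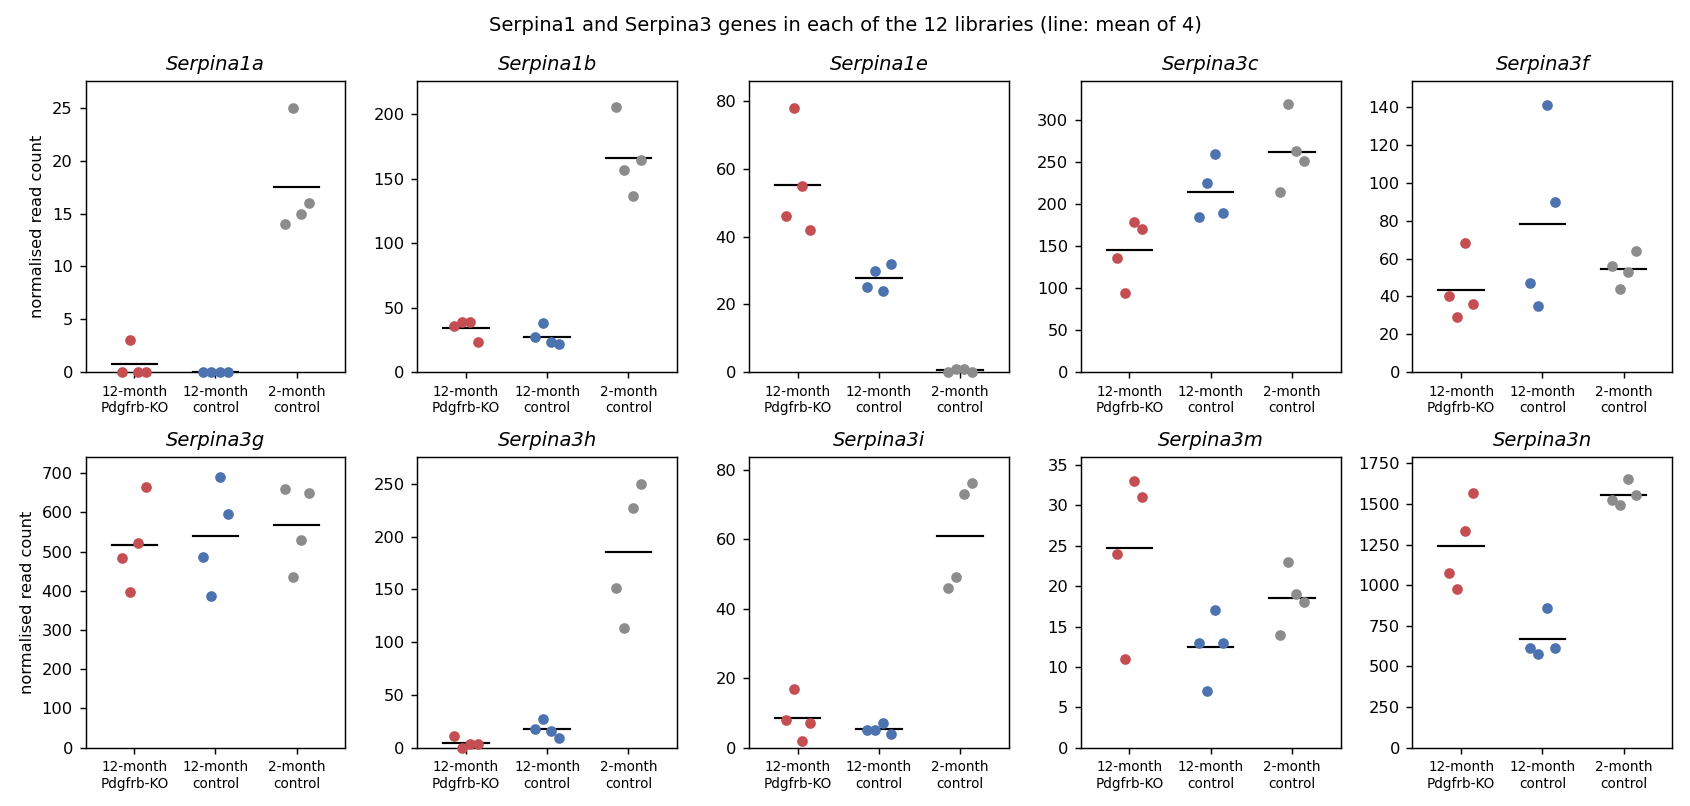
Normalised read count (y axis, linear, from 0) of each of the 10 genes in the 4 libraries of each group, with 12-month Pdgfrb-KO on the left, 12-month control in the middle and 2-month control on the right; points are libraries and lines are means. Serpina1e lies at 42 to 78 in Pdgfrb-KO mice, 24 to 32 in 12-month controls and 0 to 1 in 2-month controls, while Serpina3h lies at 0 to 11 in Pdgfrb-KO mice, 9 to 27 in 12-month controls and 113 to 250 in 2-month controls.

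The Serpina1 copies are so alike that the sequence that tells them apart is shown first. Over 1239 aligned coding bases, Serpina1a and Serpina1b differed at 37 bases (97.0% identity), Serpina1a and Serpina1e at 43 (96.5%) and Serpina1b and Serpina1e at 46 (96.3%). The stretch of 60 bases below lies in the last coding exon and covers the exposed part of the reactive centre loop, on the minus strand of GRCm38 at chr12:103853757-103853816 for Serpina1a, chr12:103728324-103728383 for Serpina1b and chr12:103947100-103947159 for Serpina1e. Capitals mark the 14 positions at which the 3 copies differ. The stretch was picked for its many differing positions and is not typical of the copies. Reads from it can be told apart among these 3 copies. Serpina1c and Serpina1d were not compared in it, and over the coding bases Serpina1c was 98.5% identical to Serpina1a.
Serpina1a: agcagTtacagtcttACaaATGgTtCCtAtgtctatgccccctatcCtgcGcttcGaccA
Serpina1b: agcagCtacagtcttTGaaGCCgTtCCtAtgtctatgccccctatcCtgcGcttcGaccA
Serpina1e: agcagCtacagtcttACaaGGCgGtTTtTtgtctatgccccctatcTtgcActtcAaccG

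Outside such stretches the copies could not always be separated. Of all stretches of 75 bases in its transcripts, Serpina1a shared 49.3% with another gene, mostly with Serpina1c (44.5%). Serpina1b shared 19.0% and Serpina1e 19.7%. The Serpina3 genes were less alike, from 0.327% for Serpina3c and 1.46% for Serpina3n to 9.65% for Serpina3m and 10.97% for Serpina3h. How the authors' counting treated reads that map to several copies is not given in the sources used here. A value of a single Serpina1 copy, of Serpina1a above all, is therefore less certain than the sum over the copies.

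**Figure D2:**
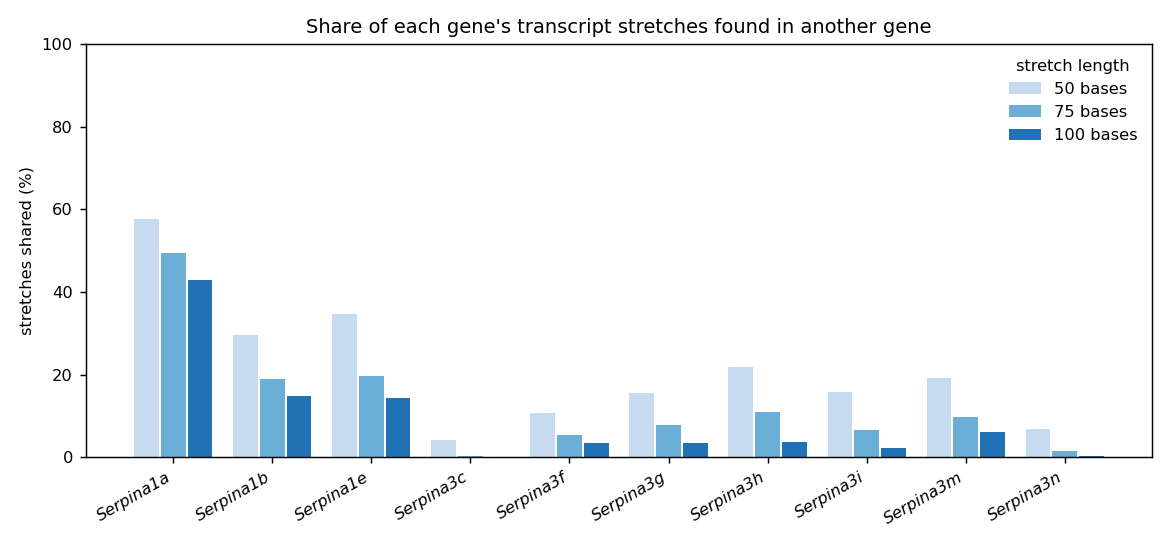
Percentage (y axis) of all stretches of 50, 75 or 100 bases in the transcripts of each gene that also occur in a transcript of another gene; 1 bar per stretch length. Serpina1a stands highest at each length, with 49.3% at 75 bases, and Serpina3c and Serpina3n lowest, with 0.327% and 1.46%.

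Serpina1b (ENSMUSG00000071178, 103728156 to 103830373) had values of 27, 38, 23 and 22 in 12-month controls, against 206, 157, 137 and 165 in 2-month controls. Every 12-month control was below every 2-month control, with means of 27.5 ± 7.33 and 166 ± 29 (SD, n = 4 each) and a log2 fold change of -2.57 (SE 0.21). In 12-month Pdgfrb-KO mice Serpina1b had 36, 39, 39 and 23, which overlapped the 12-month controls (log2 fold change 0.31, SE 0.28).

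Serpina1a (ENSMUSG00000066366, 103853589 to 103863562) was listed at 0 in all 4 12-month controls, against 14, 25, 15 and 16 in 2-month controls. With an estimated 0 counts set against 82, it was at least 28.5-fold lower in 12-month controls, taking 3 counts over the group as the most that a count of 0 allows. This limit covers counting error only. Among Pdgfrb-KO mice only replicate 2 had a value above 0, namely 3.

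Serpina1e (ENSMUSG00000072849, 103946931 to 103958975) ran the other way. It had values of 25, 30, 24 and 32 in 12-month controls, against 0, 1, 1 and 0 in 2-month controls. The groups did not overlap, and an estimated 131 counts against 2 gave a ratio of 62.9 (exact 95% counting interval 17.1 to 525). This interval pools the reads of each group and covers counting error only, not the spread between mice. In 12-month Pdgfrb-KO mice Serpina1e had 46, 78, 55 and 42, above every 12-month control. The means were 55.2 ± 16.1 in Pdgfrb-KO mice and 27.8 ± 3.86 in 12-month controls (SD, n = 4 each), with a log2 fold change of 0.94 (SE 0.26).

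Summed over the 3 Serpina1 genes, 12-month controls had 52, 68, 47 and 54, against 220, 183, 153 and 181 in 2-month controls. The sum was lower in every 12-month control (log2 difference -1.72, SE 0.15), so the lower level was present in the sum as well as in Serpina1a and Serpina1b. With Serpina1c, Serpina1d and the other Serpina1 genes of the tables added, the difference was -1.55. The make-up of the sum differed too. Serpina1e supplied 44.1 to 59.3% of it in 12-month controls and 0 to 0.654% in 2-month controls, while Serpina1b supplied 40.7 to 55.9% in 12-month controls and 85.8 to 93.6% in 2-month controls.

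In 12-month Pdgfrb-KO mice the Serpina1 sum was 82, 120, 94 and 65, against 52, 68, 47 and 54 in 12-month controls. The groups overlapped, because Pdgfrb-KO replicate 4 lay below 12-month control replicate 2 (log2 difference 0.68, SE 0.21). Serpina1e supplied 56.1 to 65% of the sum in Pdgfrb-KO mice, and 44.1 to 59.3% in 12-month controls. Serpina1d, whose reads share sequence with Serpina1e and Serpina1b, had 2, 15, 1 and 6 in Pdgfrb-KO mice, against 13, 7, 3 and 6 in 12-month controls. Serpina1c had at most 3 in any library.

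**Figure D3:**
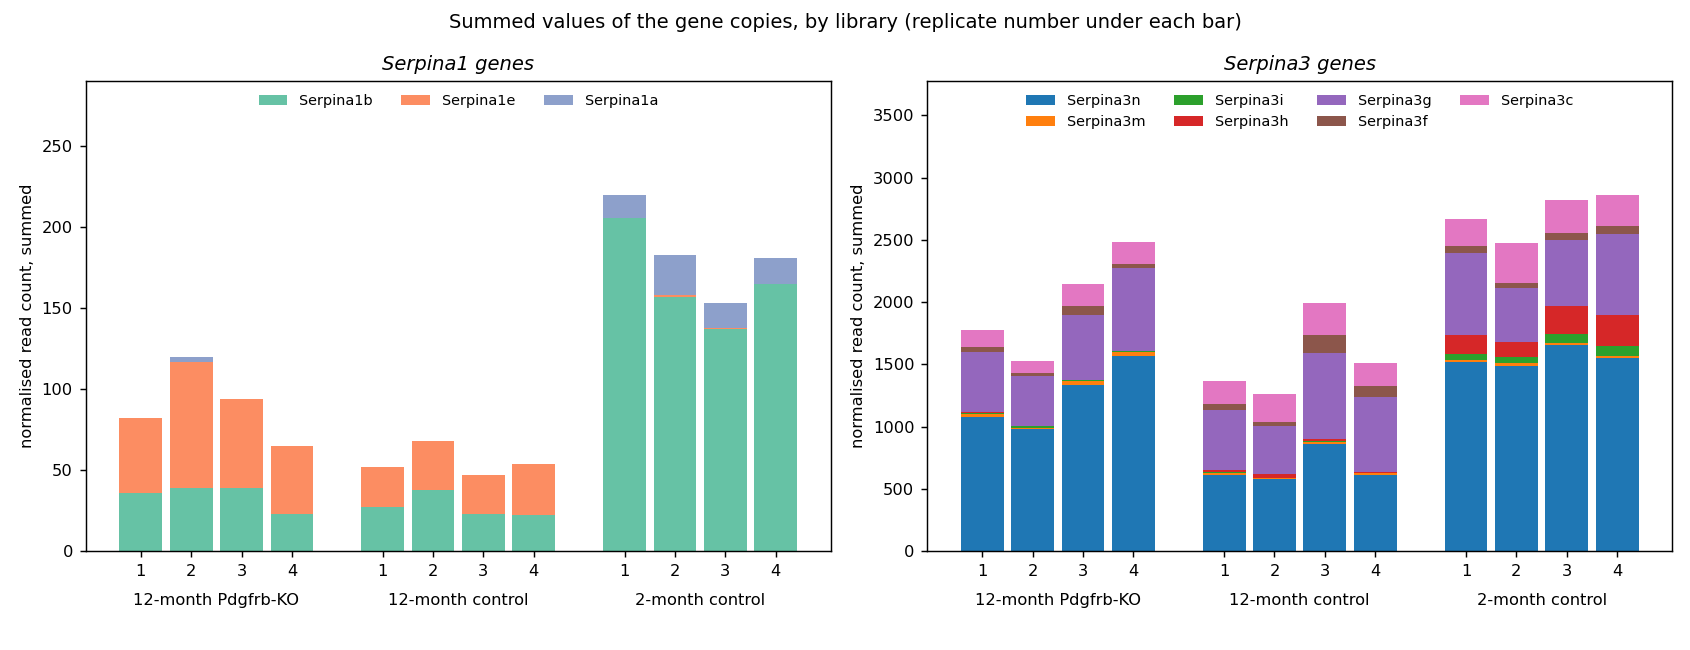
Normalised read counts (y axis, linear, from 0) stacked over the 3 Serpina1 genes (left) and the 7 Serpina3 genes (right), 1 bar per library, with replicate numbers below the bars and 12-month Pdgfrb-KO left of 12-month control and 2-month control. The Serpina1 bars reach 65 to 120 in Pdgfrb-KO mice, 47 to 68 in 12-month controls and 153 to 220 in 2-month controls, where Serpina1e is at most 1, and the Serpina3 bars reach 1527 to 2480 in Pdgfrb-KO mice, 1264 to 1993 in 12-month controls and 2474 to 2860 in 2-month controls.

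The promoters of Serpina1b and Serpina1e are shown because these copies went in opposite directions between the ages. RefSeq (GRCm38.p6) gives a window from 250 bases before to 50 after the annotated start for 8 of the 10 genes, all but Serpina3h and Serpina3m. The windows of Serpina1b (chr12:103738140-103738439) and Serpina1e (chr12:103956848-103957147) lie on the minus strand and are offset, since the annotated starts are not at the same place. Over the 248 bases that align, gaps not counted, they differed at 4 bases (98.4% identity), which are in capitals. The same measure was 93.2% for Serpina1a with Serpina1b over 293 bases.
Serpina1b: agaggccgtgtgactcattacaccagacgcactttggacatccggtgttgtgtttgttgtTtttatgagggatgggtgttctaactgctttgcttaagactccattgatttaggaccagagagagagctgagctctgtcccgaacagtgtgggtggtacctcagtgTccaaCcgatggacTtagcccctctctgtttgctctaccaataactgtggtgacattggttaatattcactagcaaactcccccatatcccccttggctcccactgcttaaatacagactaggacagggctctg
Serpina1e: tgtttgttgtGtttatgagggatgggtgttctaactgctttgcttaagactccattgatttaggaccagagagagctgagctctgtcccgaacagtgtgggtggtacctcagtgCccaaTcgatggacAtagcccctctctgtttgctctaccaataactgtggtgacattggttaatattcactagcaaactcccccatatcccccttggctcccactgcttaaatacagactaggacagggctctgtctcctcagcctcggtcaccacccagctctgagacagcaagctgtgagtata

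Serpina1 is known above all from liver, so markers of hepatocytes were read beside it. Summed over 13 hepatocyte markers, the libraries held 107 to 278 normalised reads in Pdgfrb-KO mice, 187 to 315 in 12-month controls and 210 to 423 in 2-month controls. Of the 5 markers tested between the ages, 0 rose and 1 fell, the fibrinogen chain gene Fgb (mean 6.25 in 12-month controls and 47.8 in 2-month controls, limma adjusted p = 0.0319). Of the 4 tested between the genotypes, 0 rose and 1 fell, Cyp2e1, which encodes a cytochrome of drug metabolism (log2 fold change -1.12, limma adjusted p = 0.0376). Over all genes tested, 22.7% were called between the ages and 9.42% between the genotypes. Fga and Tat were at 0 in every 12-month control, Fga and Fgg in every Pdgfrb-KO mouse and Tat in every 2-month control. Albumin (Alb) had 10, 161, 18 and 11 in Pdgfrb-KO mice, against 4, 8, 3 and 8 in 12-month controls and 4, 3, 4 and 9 in 2-month controls. Pdgfrb-KO replicate 2 thus held the highest value of Alb, Serpina1e and Serpina1d and the only Serpina1a reads of its group. The other hepatocyte markers were mixed in that library. Apoa1 (25), Ahsg (6), Ttr (6) and Apoh (4) were also highest there, while Serpinc1 was lowest (8, against 24 to 44). Cyp2e1 (59), Fabp1 (6) and Apoa2 (3) lay within the range of the group, and Fga, Fgb, Fgg and Tat were at 0. Without Pdgfrb-KO replicate 2 the log2 difference of the Serpina1 sum was 0.53 and that of Serpina1e was 0.76. The part of hepatocyte RNA in these values was not tested.

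Among the Serpina3 genes, Serpina3n had the highest level per kb of exon in each group. Per kb, Serpina3n averaged 600 normalised reads in Pdgfrb-KO mice, 323 in 12-month controls and 753 in 2-month controls, and Serpina3g came next with 246 in Pdgfrb-KO mice, 257 in 12-month controls and 270 in 2-month controls.

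Serpina3n (ENSMUSG00000021091, 104406729 to 104414329) had values of 613, 578, 861 and 612 in 12-month controls, against 1522, 1490, 1651 and 1552 in 2-month controls. The ages did not overlap (log2 fold change -1.24, SE 0.12). In 12-month Pdgfrb-KO mice it had 1073, 979, 1336 and 1567. All 4 lay above all 4 12-month controls, with means of 1239 ± 266 in Pdgfrb-KO mice and 666 ± 131 in 12-month controls (SD, n = 4 each) and a log2 fold change of 0.89 (SE 0.17). Serpina3n thus lay in Pdgfrb-KO mice between the 12-month and the 2-month controls by its mean, and Pdgfrb-KO replicate 4 reached the range of the 2-month controls.

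The stretch of 60 aligned bases below sets Serpina3n beside Serpina3h and Serpina3i, the Serpina3 genes with the largest log2 fold change between the ages. It was picked for its many differing positions, so it does not show how far these genes usually differ. It lies on the plus strand of GRCm38, at chr12:104250177-104250236 for Serpina3h, chr12:104265131-104265190 for Serpina3i and chr12:104408726-104408785 for Serpina3n. Capitals mark the 21 positions that differ between the 3 genes. Over the aligned bases, Serpina3h and Serpina3i were 87.5% identical, Serpina3i and Serpina3n 85.05%, and Serpina3h and Serpina3n 80.6%. Coding sequence was used for Serpina3i and Serpina3n, and the longest transcript for the pseudogene Serpina3h, which has no annotated coding sequence.
Serpina3h: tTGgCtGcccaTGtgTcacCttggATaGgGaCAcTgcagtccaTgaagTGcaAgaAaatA
Serpina3i: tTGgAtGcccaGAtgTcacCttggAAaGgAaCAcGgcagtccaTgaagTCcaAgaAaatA
Serpina3n: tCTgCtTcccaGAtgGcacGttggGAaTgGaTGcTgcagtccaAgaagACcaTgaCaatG

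Serpina3h (ENSMUSG00000041449, 104247905 to 104253669) had values of 18, 27, 16 and 9 in 12-month controls, against 151, 113, 227 and 250 in 2-month controls. The ages lay far apart (log2 fold change -3.36, SE 0.33). In Pdgfrb-KO mice it had 11, 0, 4 and 4, which overlapped the 12-month controls in replicate 1 (log2 fold change -2.06, SE 0.69). An estimated 14 counts in Pdgfrb-KO mice and 83 in 12-month controls lay behind that difference.

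Serpina3i (ENSMUSG00000079014, 104263122 to 104269372), the gene next to Serpina3h, had values of 5, 5, 7 and 4 in 12-month controls, against 46, 49, 73 and 76 in 2-month controls. The ages did not overlap (log2 fold change -3.30, SE 0.29). In Pdgfrb-KO mice it had 8, 17, 2 and 7, which overlapped the 12-month controls, and it was too low to be tested there.

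Serpina3c (ENSMUSG00000066361, 104146382 to 104153870) had values of 136, 94, 179 and 171 in Pdgfrb-KO mice, against 185, 225, 260 and 190 in 12-month controls. The genotypes did not overlap, though the highest mutant (179) lay close to the lowest control (185), with a log2 fold change of -0.59 (SE 0.22). In 12-month controls it overlapped the 2-month controls, which had 215, 319, 263 and 252 (log2 fold change -0.28, SE 0.15).

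Serpina3g (ENSMUSG00000041481, 104236245 to 104241939) had values of 484, 397, 522 and 664 in Pdgfrb-KO mice, 487, 387, 691 and 596 in 12-month controls and 659, 436, 530 and 648 in 2-month controls. All groups overlapped, with log2 fold changes of -0.06 (SE 0.20) between the genotypes and -0.09 (SE 0.18) between the ages. Serpina3f (ENSMUSG00000066363, 104214544 to 104221129) ranged from 29 to 68 in Pdgfrb-KO mice, from 35 to 141 in 12-month controls and from 44 to 64 in 2-month controls. Serpina3m (ENSMUSG00000079012, 104338486 to 104394257) ranged from 11 to 33 in Pdgfrb-KO mice, from 7 to 17 in 12-month controls and from 14 to 23 in 2-month controls. Neither was separated in either comparison.

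Summed over the 7 Serpina3 genes, Pdgfrb-KO mice had 1776, 1527, 2144 and 2480, against 1368, 1264, 1993 and 1514 in 12-month controls. These overlapped (log2 difference 0.37, SE 0.21). Without Serpina3n the sum averaged 743 ± 156 in Pdgfrb-KO mice and 869 ± 197 in 12-month controls (SD, n = 4 each), so the higher mean of the whole sum came from Serpina3n. Between the ages the sum was lower in all 4 12-month controls, against 2663, 2474, 2816 and 2860 in 2-month controls (log2 difference -0.84, SE 0.15). Serpina3n made up 60.4 to 64.1% of the sum in Pdgfrb-KO mice, 40.4 to 45.7% in 12-month controls and 54.3 to 60.2% in 2-month controls. The share of Serpina3g was 24.4 to 27.2% in Pdgfrb-KO mice, 30.6 to 39.4% in 12-month controls and 17.6 to 24.8% in 2-month controls. That of Serpina3h was 0 to 0.619% in Pdgfrb-KO mice, 0.595 to 2.14% in 12-month controls and 4.57 to 8.74% in 2-month controls.

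Ordered by mean level per kb, 2-month controls ran from Serpina3n (753) over Serpina3g (270), Serpina3h (129), Serpina3c (118), Serpina1b (68.8), Serpina3i (27.4), Serpina3f (23.7), Serpina3m (10.8) and Serpina1a (9.55) to Serpina1e (0.309). In that order Serpina3h and Serpina3c overlapped, as did Serpina3i with Serpina3f and Serpina3m with Serpina1a. In 12-month controls the order was Serpina3n (323), Serpina3g (257), Serpina3c (97.2), Serpina3f (34.2), Serpina1e (17.2), Serpina3h (12.2), Serpina1b (11.4), Serpina3m (7.27) and Serpina3i (2.36), with Serpina1a at 0. There Serpina3n overlapped Serpina3g, and each neighbouring pair from Serpina3f to Serpina3m overlapped. In Pdgfrb-KO mice Serpina3n (600) stood clear of Serpina3g (246) and Serpina3g of Serpina3c (65.5), and Serpina1e (34.2), Serpina3f (18.9), Serpina3m (14.4), Serpina1b (14.2), Serpina3i (3.82), Serpina3h (3.31) and Serpina1a (0.409) followed. In that group every neighbouring pair from Serpina3c to Serpina1a overlapped except Serpina1b and Serpina3i.

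Between the ages all 10 genes passed the filter on low values. Serpina1a and Serpina3i passed it only through the 2-month controls and Serpina1e only through the 12-month controls, so these had to differ. Of the 10, 1 was called higher and 5 lower, where 22.7% of the 16399 genes tested were called (11.3% higher, 11.4% lower). The groups did not overlap for 6, of which 1 was higher and 5 lower, where 24.8% of all genes tested did not overlap (12.3% higher, 12.5% lower). Between the genotypes 8 passed the filter, all but Serpina1a and Serpina3i. Of these, 2 (Serpina1e and Serpina3n) were called higher and 0 lower, where 9.42% of 16344 genes were called (4.96% higher, 4.46% lower). The groups did not overlap for 3, of which 2 were higher and 1 (Serpina3c) lower, where 17.1% of all genes did not overlap (9.05% higher, 8.06% lower). The call of Serpina1e was kept in 7 of 16 alternative settings and was lost with no filter, with all 12 libraries in one fit, without Pdgfrb-KO replicate 1, 2 or 3, and without any of the 12-month controls. The call of Serpina3n was kept in 17 of 17. The median log2 fold change was -0.90 for the 10 genes and -0.01 for all genes tested between the ages, and 0.13 for the 8 genes and -0.01 for all genes between the genotypes. Since the genes were chosen with these values known, nothing is read from these counts, and the comparisons share the 12-month controls.

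The genes around the cluster were not chosen by their values. Within 1 Mb on each side the tables list 87 other genes, most of them below the filter, and 21 could be tested between the ages. Of these, 3 rose and 2 fell (23.8%, against 22.7% of all genes tested). Gsc, which encodes the homeobox factor goosecoid and lies 56.9 kb past the last Serpina3 gene, rose with age. It had values of 235, 361, 196 and 180 in 12-month controls, against 93, 82, 105 and 92 in 2-month controls (log2 fold change 1.33, limma adjusted p = 0.000841). Clmn, which encodes calmin, an actin-binding membrane protein, had 192, 196, 172 and 158 in 12-month controls, against 499, 431, 444 and 531 in 2-month controls, and fell (log2 fold change -1.40, limma adjusted p = 1.5e-05). Both sets of values stood apart without overlap. Ppp4r4, a regulatory subunit of protein phosphatase 4 that lies 114 kb before Serpina1b, rose by 0.91 and the long noncoding RNA Gm28875 by 0.70, while Btbd7 fell by 0.29 (limma adjusted p = 0.0151, 0.00612 and 0.0329).

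Between the genotypes 20 neighbours were tested, of which 1 rose and 1 fell (10%, against 9.42% of all genes). The interferon-induced gene Ifi27l2a, 284 kb before Serpina1b, had 2044, 1669, 1891 and 1184 in Pdgfrb-KO mice, against 617, 710, 799 and 856 in 12-month controls. It rose in all 4 mutants (log2 fold change 1.17, limma adjusted p = 0.00225). Clmn had 102, 131, 114 and 103 in Pdgfrb-KO mice, against 192, 196, 172 and 158 in 12-month controls, and fell (log2 fold change -0.67, limma adjusted p = 0.0218). The call of Clmn was lost without Pdgfrb-KO replicate 1 and without 12-month control replicate 1, 2 or 3, which left 1 neighbour past the threshold. The plot along the cluster sets the members beside these neighbours.

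**Figure D4:**
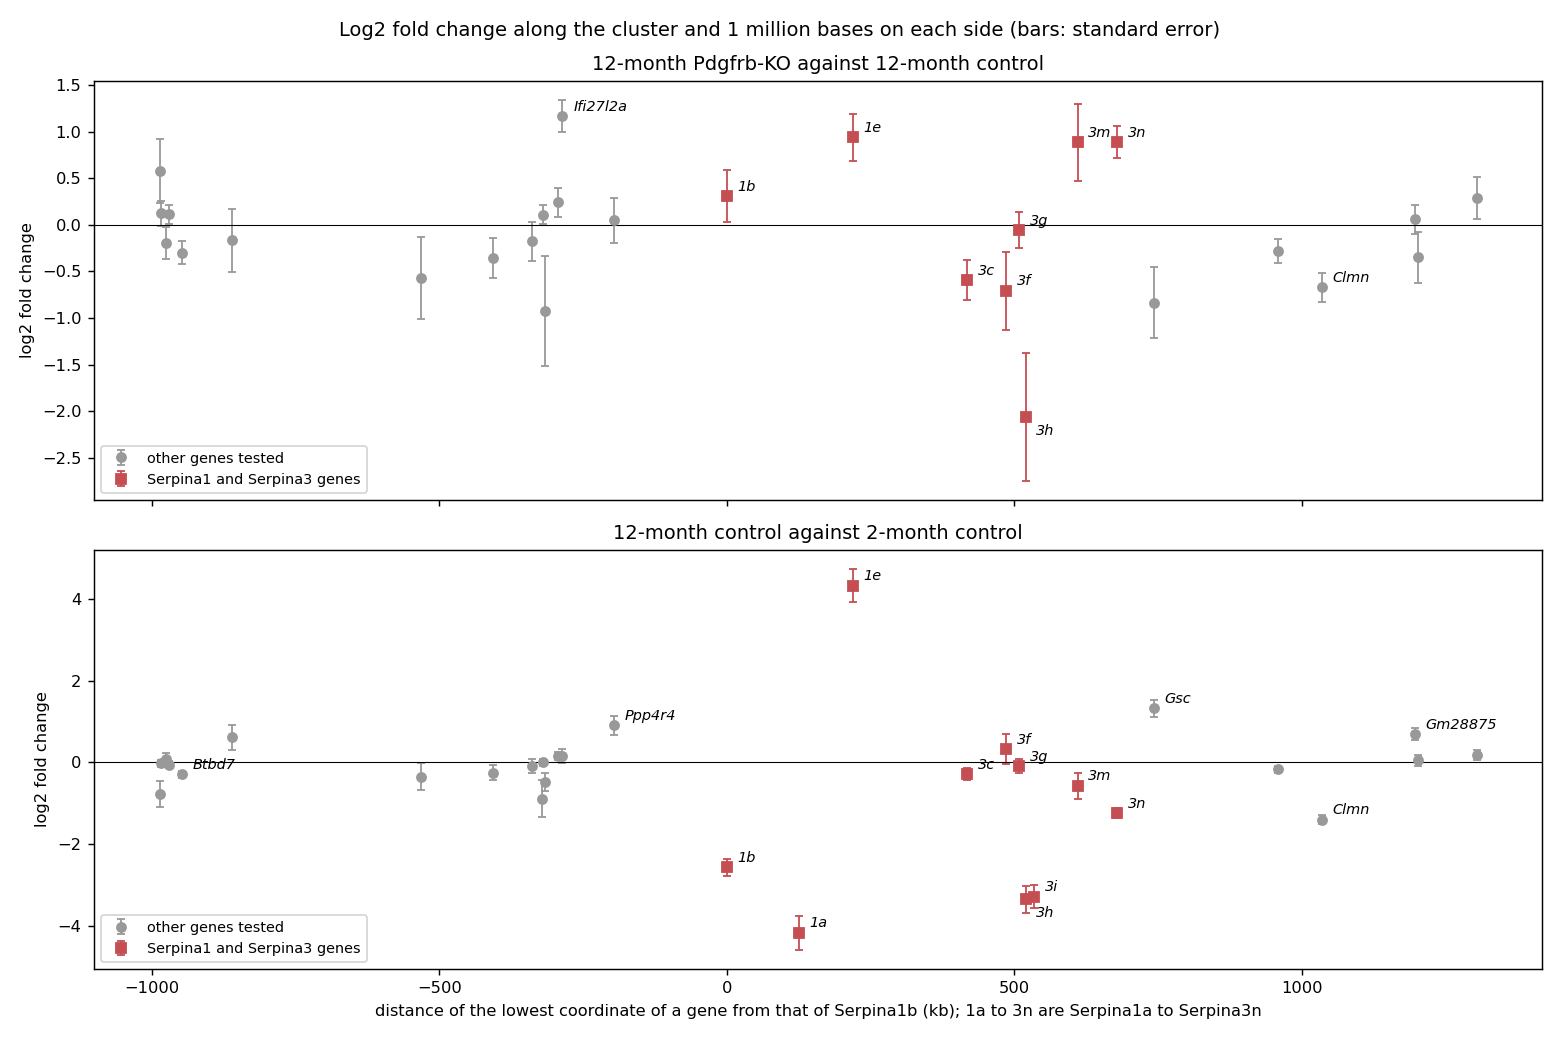
Log2 fold change (y axis, bars are the standard error) against the distance in kb of a gene's lowest coordinate from that of Serpina1b (x axis), for 12-month Pdgfrb-KO against 12-month control (top) and 12-month control against 2-month control (bottom); squares are Serpina1 and Serpina3 genes that were tested and circles other tested genes, named where they passed the threshold. Among the squares, values run from -2.06 (Serpina3h) to 0.94 (Serpina1e) at the top and from -4.17 (Serpina1a) to 4.34 (Serpina1e) at the bottom, while the named circles run from -0.67 (Clmn) to 1.17 (Ifi27l2a) at the top and from -1.40 (Clmn) to 1.33 (Gsc) at the bottom.

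The other listed genes with a Serpina name, most of them neighbours in the same cluster, had hardly any reads. Of a list of 16, which leaves out the pseudogenes Serpina3d-ps, Serpina3e-ps and Serpina3l-ps, 0 passed the filter in either comparison. The sums of the 16 were 9 to 37 in Pdgfrb-KO mice and 17 to 79 in 12-month controls. The pseudogenes left out had at most 3 in any library. Serpina3b and Serpina3j had 29 and 27 in 12-month control replicate 1 and at most 2 in any other library. That library also held the most Krt14, a keratin of basal skin epithelium, with 532, against 5 to 164 in the other 12-month controls and 0 in every Pdgfrb-KO mouse. Without it the log2 difference of the Serpina1 sum was 0.65 and that of the Serpina3 sum 0.32 between the genotypes.

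Serpin genes outside the Serpina name series, a list that includes Agt, are described by counts of the genes tested singly. Of 16 tested between the ages, 5 rose, 1 fell and 10 did not pass. Serpinb6a, an intracellular serpin, rose by 0.72, Serpine2, known as protease nexin 1, by 0.93 and Serping1, the inhibitor of complement C1, by 0.69 on the log2 scale, while Agt, the angiotensinogen gene, fell by 0.62 (limma adjusted p = 0.000795, 0.000841, 0.00152 and 0.00348). Between the genotypes 4 of 16 rose, 1 fell and 11 did not pass. Agt had means of 591 in Pdgfrb-KO mice and 251 in 12-month controls (log2 fold change 1.18, limma adjusted p = 0.00665). Serpinb8 rose by 0.94 and Serpinb1a, an inhibitor of neutrophil proteases, by 0.58, while Serpinf1, which encodes PEDF, fell by 0.75 (limma adjusted p = 0.0078, 0.0151 and 0.0078). The median log2 fold change of these serpins was 0.07 between the ages and -0.24 between the genotypes, and that of all genes -0.01 in each. Of all genes tested, 22.7% were called between the ages and 9.42% between the genotypes.

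Proteases that clade A serpins or their relatives are known to inhibit were also read. Of 15 tested between the ages, 10 rose, 0 fell and 5 did not pass, with a median log2 fold change of 0.71. For all genes tested the median was -0.01, and 22.7% were called (11.3% higher, 11.4% lower). The urokinase gene Plau had a mean of 5914 in 12-month controls and 2184 in 2-month controls (log2 fold change 1.41, limma adjusted p = 5.46e-05). The gene of the lysosomal cathepsin S, Ctss, rose by 1.13, and the mast cell protease genes Mcpt4 and Tpsb2 by 1.75 and 1.54 (limma adjusted p = 6.17e-05, 0.0001 and 0.000556). Between the genotypes 3 of 17 rose, 2 fell and 12 did not pass, with a median log2 fold change of 0.40. For all genes tested there the median was -0.01, and 9.42% were called (4.96% higher, 4.46% lower). Klk1, a tissue kallikrein gene, had means of 81.2 in Pdgfrb-KO mice and 10 in 12-month controls (log2 fold change 3.04, limma adjusted p = 0.00613), Ctsb rose by 0.82 (limma adjusted p = 0.0122), and Plat, the gene of tissue plasminogen activator, and Ctsk, that of cathepsin K, fell by 1.04 and 0.80 (limma adjusted p = 0.000381 and 0.0137). Granzyme B (Gzmb), a known target of Serpina3n, had means of 68.8 in Pdgfrb-KO mice and 136 in 12-month controls and did not pass (limma adjusted p = 0.0730).

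Lists of genes known to be induced by the same signals as Serpina3 genes had members called in both directions. The share called among all genes tested was 22.7% between the ages and 9.42% between the genotypes. Of 20 acute phase genes tested between the ages, 3 rose, 5 fell and 12 did not pass, and of 21 between the genotypes 3 rose, 1 fell and 17 did not pass. Lrg1, a secreted acute phase glycoprotein, had means of 2886 in Pdgfrb-KO mice and 1047 in 12-month controls (log2 fold change 1.43, limma adjusted p = 0.00122), and the 12-month mean was lower than the 2180 of 2-month controls (log2 fold change -1.05, limma adjusted p = 0.000332). Haptoglobin (Hp) had 865 in Pdgfrb-KO mice and 502 in 12-month controls (limma adjusted p = 0.0272), and the gene of interleukin 6 (Il6) fell between the ages by 0.68 (limma adjusted p = 0.00186). Other genes went the other way. Between the ages Hp rose by 0.91 and Mt2 by 0.68 (limma adjusted p = 0.0068 and 0.00585). Between the genotypes Osmr fell (log2 fold change -0.55, limma adjusted p = 0.0386). Timp1 rose there by 0.71, as Lrg1 and Hp did (limma adjusted p = 0.0479). Of 11 glucocorticoid targets, 1 rose, 0 fell and 10 did not pass between the ages, and 2 rose, 1 fell and 8 did not pass between the genotypes. Fkbp5, a chaperone of the glucocorticoid receptor, rose by 0.91 and Tsc22d3, a glucocorticoid-induced leucine zipper gene, by 0.59 in Pdgfrb-KO mice, while Hsd11b1, the enzyme that regenerates the active hormone, fell by 1.00 (limma adjusted p = 0.00157, 0.0422 and 0.00292).

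Of 20 interferon-gamma-induced genes, 2 rose, 0 fell and 18 did not pass between the ages, and 0 rose, 6 fell and 14 did not pass between the genotypes, with a median log2 fold change of -0.38 there. Among all genes tested, 22.7% were called between the ages. Between the genotypes 9.42% were called (4.96% higher, 4.46% lower), with a median of -0.01. The chemokine gene Cxcl9 had means of 439 in Pdgfrb-KO mice and 1050 in 12-month controls (limma adjusted p = 0.00242). The GTPase gene Iigp1 had means of 2264 in Pdgfrb-KO mice and 4564 in 12-month controls (limma adjusted p = 0.00311), and its relative Tgtp1 fell by 1.71 (limma adjusted p = 0.00522). Serpina3g, which is known to be induced by interferon gamma, overlapped between the genotypes as given above.

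The libraries are labelled as primary cells of fat, and per library fibroblastic progenitor markers summed to between 76255 and 143670 and adipocyte markers to between 2812 and 4876. Cell type markers moved in both comparisons. Over all genes tested, 22.7% were called between the ages (11.3% higher, 11.4% lower) and 9.42% between the genotypes (4.96% higher, 4.46% lower). In bulk RNA, fewer cells of a type and less RNA per cell cannot be told apart. Of 8 macrophage markers, 7 rose and 0 fell in Pdgfrb-KO mice, with sums of 58842 to 101700 against 29605 to 42428 in 12-month controls, and 5 of 6 neutrophil markers rose, with sums of 1997 to 3087 against 948 to 1459. Between the ages 6 of 8 macrophage markers rose and 0 fell. Of 10 fibroblastic progenitor markers, 1 rose and 4 fell in Pdgfrb-KO mice (sums 89337 to 95241 against 116449 to 143670), and 5 rose and 1 fell between the ages. Of 8 mural markers 0 passed the test between the genotypes, with a median log2 fold change of -0.44 and sums of 22900 to 28700 in Pdgfrb-KO mice against 28021 to 48281 in 12-month controls. Nearest to the threshold were Rgs5, a pericyte gene (log2 fold change -0.94, limma adjusted p = 0.0504), and Mcam (-0.71, limma adjusted p = 0.0511). Between the ages 1 mural marker rose and 7 fell (sums 28021 to 48281 in 12-month controls against 45576 to 52177 in 2-month controls). Endothelial sums were 28117 to 37626 in Pdgfrb-KO mice, 35158 to 53566 in 12-month controls and 48440 to 66380 in 2-month controls. Of 10 lymphocyte markers, 1 rose and 0 fell in Pdgfrb-KO mice, and 2 rose and 1 fell between the ages. Of 6 adipocyte markers, 0 rose and 1 fell in Pdgfrb-KO mice, and 4 rose and 0 fell between the ages. The part of these markers in the levels of the Serpina1 and Serpina3 genes was not tested.

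The mice were of mixed strain background, and genes whose reads are known to differ between mouse strains split the groups. Trim12a, on chromosome 7, had 81, 38, 16 and 5 in Pdgfrb-KO mice, 1692, 1431, 1422 and 1515 in 12-month controls and 0, 3, 6 and 1 in 2-month controls. Trim5 and Trim30d, in the same region, were also higher in 12-month controls than in 2-month controls and than in Pdgfrb-KO mice. Mndal, on chromosome 1, had means of 2614 in Pdgfrb-KO mice, 3014 in 12-month controls and 123 in 2-month controls. Ifi202b had 2, 2342, 147 and 1734 in Pdgfrb-KO mice, 92, 10, 3 and 0 in 12-month controls and 1548, 2580, 2688 and 1798 in 2-month controls, so the mutants differed among themselves. Of these 5 genes 4 were called higher and 1 lower in 12-month controls than in 2-month controls, where 22.7% of all genes tested were called. Between the genotypes 0 were called higher, 3 lower and 2 did not pass, where 9.42% of all genes were called. Ifi202b lies close to Mndal on chromosome 1, and the Trim genes share a region of chromosome 7, so the 5 genes do not count singly. Nnt had at most 11 in any library and was not tested. Strain origin on chromosome 12 was not analysed here, and for the Serpina1 and Serpina3 copies it cannot be told apart from age or genotype.

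Among 11553 genes with a mean of at least 100, likeness to a member was measured as the mean absolute difference of log2 values, each centred over the 12 libraries. The genes most like Serpina3n were Vwa3a (0.16), Ephb2 (0.18) and Zfp14 (0.21), where the median gene had 0.53. Vwa3a had means of 398 in Pdgfrb-KO mice, 223 in 12-month controls and 580 in 2-month controls. For Serpina3h they were Gm13841 (0.83), Rpl34-ps1 (0.86) and Baiap2l1 (0.88), against a median of 2.00, and Gm13841 and Rpl34-ps1 are processed pseudogenes. For the Serpina1 sum they were Rad51ap1 (0.18), Asb4 (0.22) and Csf3 (0.24), against a median of 0.70. None of these genes lies on chromosome 12.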

How the data were processed

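RNA sequencing of 12 libraries of inguinal SVF was used. The submitters' processing notes name Trim Galore 0.6.0, cutadapt, FastQC, STAR 2.7.0e, DESeq2 1.26.0 and the build GRCm38, and the counting tool is not given in the sources used here. Each deposited value is a score, namely a gene's count divided by the library's size factor and rounded to a whole number, so no count model was fitted. Of 55536 genes listed, 55450 identifiers were found in GENCODE vM21, the source of coordinates (counted from 1). Dates stood in place of 27 gene names in the table of both ages, so names came from the other table, from which 4 lines without a gene were dropped. Per-sample columns of no listed sample numbered 0. The 12-month control values were equal in 100% of genes in both tables. The counts behind each library were estimated from the gaps that division and rounding leave in low values, and for Pdgfrb-KO replicate 4 the size factor of 1.018 could also be 2 times as large.

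Tests used limma 3.58.1 (R 4.3.3) on log2(value + 1) (trend, robust, two-sided, Benjamini-Hochberg, threshold 0.05) over genes that reached a value of 10 in 4 or more of 8 libraries, each comparison on its own 8 libraries. The test was checked on simulated data. Alternatives were pseudocounts of 0.5 and 5, no filter, a mean of at least 50, TMM factors, quantile normalization, no trend, all 12 libraries in one fit, the replicate number as a block and each library left out.

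The 10 genes and all lists were chosen with earlier results of these data known, so the levels of the 10 genes are given as a description: they were part of the fit over all genes, their calls are given only as counts beside those of all genes, and their p-values are not reported. Genes named in the text were the 10 genes, other Serpina1 and Serpina3 genes, neighbours past the threshold, the genes most alike in profile, and of each list up to 4 genes past the threshold by smallest p and up to 2 that were not. Lists were described by counts and medians. Coding sequences (for Serpina3h, which has none, the longest transcript) and promoters were aligned with mafft 7.526. Python 3.11.15 was used for tables (pandas 2.3.3, numpy 2.4.6, scipy 1.17.1) and for figures (matplotlib 3.10.9).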

Additional observations from a re-analysis of the deposited data

Results flagged for a closer look

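Of 65 groups of 4 values checked, 5 held a library whose gap to the nearest other, divided by the range of the group, was above Dixon's 95% critical value, which chance passes in about 1 in 20 groups. Serpina3n had 861 in 12-month control replicate 3, against 578 to 613 in the other 12-month controls. Serpina1a had 3 in Pdgfrb-KO replicate 2 and 0 in the other Pdgfrb-KO libraries. Alb had 161 in Pdgfrb-KO replicate 2, against 10 to 18 in the others, and 9 in 2-month control replicate 4, against 3 to 4 in the others. Ifi202b had 92 in 12-month control replicate 1, against 0 to 10 in the others.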

How the results depend on the processing

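No member past the threshold and no sum changed sign under an alternative. Members that were not past it and lay near 0 did change sign with 1 library left out. Serpina3f with age (0.33) was -0.02 without 12-month control replicate 3, and Serpina3g with age (-0.09) was 0.06 without 12-month control replicate 2. Serpina3g between the genotypes (-0.06) was 0.06 without Pdgfrb-KO replicate 2 and 0.07 and 0.00316 without 12-month control replicates 3 and 4. Of 154 log2 fold changes of members between the ages under alternatives, 149 moved by less than 1 SD between replicates and 5 by more, all of them low genes under another pseudocount (Serpina1e 2.57 to 5.02, Serpina1a -5.13 to -2.14, Serpina3i -2.66). Of 128 between the genotypes, 128 moved by less. The log2 differences of the sums kept their direction under every alternative, and with a library left out ranged from -1.82 to -1.63 (Serpina1) and -0.97 to -0.75 (Serpina3) between the ages and from 0.53 to 0.82 and 0.25 to 0.50 between the genotypes. Counts of called genes depended more on the libraries. Between the ages 3727 genes were called, and 2356 to 3961 with a library left out, with 2454 and 2356 without 2-month control replicates 3 and 4. Between the genotypes 1539 were called, and 859 to 1878 with a library left out, with 889 without Pdgfrb-KO replicate 1 and 895, 885 and 859 without 12-month control replicates 1, 2 and 3. In one fit of all 12 libraries 2600 genes were called. With the replicate block 3116 genes were called between the ages and 2380 between the genotypes, but same-numbered libraries shared only a number, with correlations of their deviations from -0.216 to 0.157 and from -0.0175 to 0.375. Neighbours called between the genotypes numbered 2, and 1 to 2 with a library left out. The call of Serpina3h between the genotypes was gained only with all 12 libraries in one fit. The causes were not tested. The share of stretches that Serpina1a shares with other genes was 57.6% at 50 bases. Members under about 30 normalised reads, such as Serpina1a, Serpina3m and, at 12 months, Serpina3h and Serpina3i, rest on few reads. So do Serpina1b and Serpina1e in 12-month controls (means 27.5 and 27.8) and Serpina1e in 2-month controls (mean 0.5). A count of 0 in a 12-month control group allows a mean of up to 0.627 normalised reads.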
